A study of Sus scrofa with 7 samples.

Results

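The matrix metalloproteases (MMPs), the ADAMTS proteases with their ADAMTS-like (ADAMTSL) relatives, and the tissue inhibitors of metalloproteases (TIMPs) were examined in infarcted pig hearts. Genes were taken by symbol, as MMP, ADAMTS, ADAMTSL or TIMP followed by a number, which gave 48 of the 20653 genes in the table. Of these, 39 had a normalized read count of at least 10 in at least 3 libraries and were measured, among 15661 such genes in all. Each of the 39 had at least 10 in all 7 libraries, so none of them entered through 1 group alone. The lowest value of a measured family gene was 13.1 (MMP25) and the highest was 11617 (TIMP3).

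RNA was sequenced from myocardium of the anterior middle ventricle of male farm pigs, 14 weeks after an infarct made through the left circumflex artery of the heart. The 3 libraries labelled hrLuc came from pigs that had received adeno-associated virus of serotype 5 (AAV5) carrying luciferase, a reporter. The 4 libraries labelled S100a1 came from pigs that had received AAV5 carrying human S100A1, which binds calcium and is made in heart muscle. All 7 animals had an infarct and a viral vector, and there was no group without either. The sources used here do not state the age, the breed or the promoter of the vectors.

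MMPs and ADAMTS proteases are zinc-dependent enzymes that cut proteins of the extracellular matrix. Most are made as inactive proenzymes, which other proteases such as furin or plasmin activate, and TIMPs block the active site. MMPs are best known for cutting collagens, gelatin and elastin, and ADAMTS proteases for cutting proteoglycans, trimming procollagens and cutting von Willebrand factor. ADAMTSL proteins share the ancillary domains of ADAMTS proteases but have no protease domain. After infarction these enzymes and inhibitors take part in clearing necrotic muscle, building the collagen scar and remodelling the surviving wall. The comparison asks whether their transcripts differed between hearts given S100A1 and hearts given luciferase.

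The libraries held 28679324 to 38409552 reads with 1 transcript row per gene. Heart muscle transcripts dominated, with TTN, the giant sarcomere protein titin, at 7.97% to 11.4% of the reads. The summed level of 7 cardiomyocyte markers was 4269930 to 4865910 normalized counts in hrLuc and 4417580 to 5782010 in S100a1. The pig S100A1 gene was at 6568 to 9125 in hrLuc and 4429 to 6804 in S100a1, at -0.39 on the log2 scale (limma, adjusted p = 0.577), so its values were lower, not higher, in the libraries labelled for the delivered gene. Whether reads of the human sequence were counted for the pig gene was not tested, and the labels could not be checked by it. In bulk tissue, fewer cells of a type and less RNA per cell cannot be told apart. The titles describe each library as 1 pig.

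No family gene passed an adjusted p of 0.05 in limma (0 of 39, where 2 of all 15661 genes passed, which is 0.0128%, with 0.00639% in each direction). At an unadjusted p under 0.05 there were 9 of 39 family genes (23.1%), against 8.26% of all genes tested. ADAMTS20, ADAMTS6, MMP24 and ADAMTSL1 were the 4 with higher values in S100a1, where 3.69% of all genes were at that level in this direction. ADAMTS3, MMP25, ADAMTS2, TIMP1 and MMP15 were the 5 with lower values, where the share of all genes was 4.57%. In the same 9 genes, and in no other family gene, the S100a1 and hrLuc values were fully apart. Groups did not overlap in 9.27% of all genes tested, with S100a1 above in 3.96% and below in 5.31%. The family was chosen with earlier results of these data known. Its shares beside those of all genes are thus a description, not a test. Values of family genes spread more within a group than those of a typical gene, with a median SD on the log2 scale of 0.23 against 0.16 for all genes tested.

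The direction was mixed. Of the 39 genes, 24 had a negative log2 fold change (61.5%, against 56.5% of all genes tested) and the median was -0.14, against -0.02 for all genes. The MMPs had 8 negative of 11 with a median of -0.19, and the ADAMTS proteases 12 of 19 with a median of -0.11. Of the 5 ADAMTSL genes 2 were negative, and of the 4 TIMPs 2 were negative. Fold changes are S100a1 over hrLuc on the log2(value + 0.5) scale, with their standard errors (SE).

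**Figure D1:**
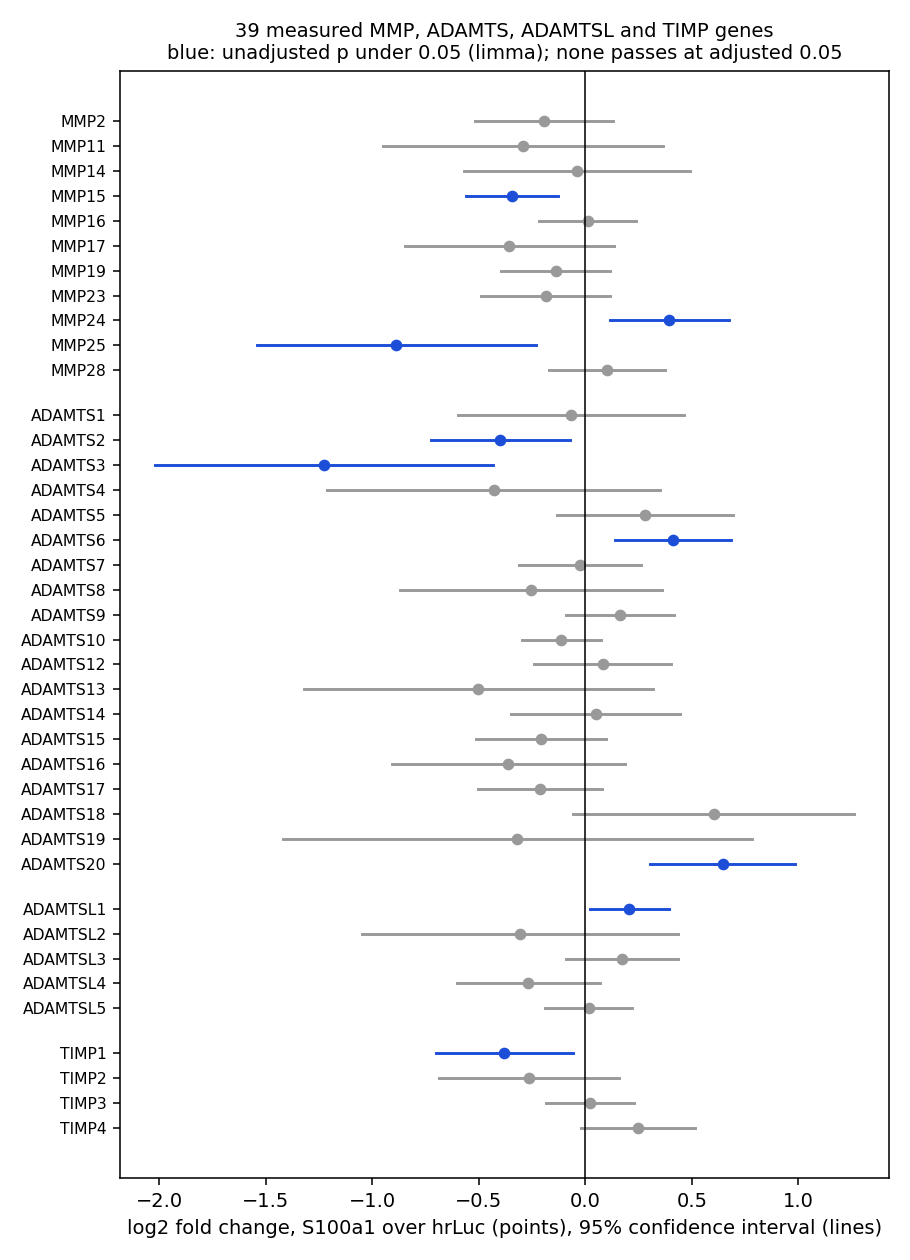
Log2 fold change of S100a1 over hrLuc for the 39 measured genes (points) with 95% confidence intervals (lines), by family. The 9 genes in blue, from ADAMTS3 at -1.23 to ADAMTS20 at 0.65, have an unadjusted p under 0.05 in limma, and none passes when adjusted over all genes.

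ADAMTS20 had the smallest p of the family. It is a proteoglycan-cutting protease closely related to ADAMTS9 and known for its part in melanoblast development, and lies on chromosome 5 from 74502098 to 74672703 (Sscrofa11.1, as are all positions here). Its normalized read count was 750.0, 642 and 849.8 in hrLuc replicates 1 to 3 and 1255, 1181, 1363 and 901 in S100a1 replicates 1 to 4. Every S100a1 library lay above every hrLuc library, and S100a1 replicate 4 lay closest to the hrLuc range. The means were 747 ± 104 (SD, n = 3) and 1175 ± 198 (SD, n = 4). The log2 fold change was 0.65 ± 0.15 (SE), or 1.56-fold, with an adjusted p of 0.462 in limma. The gene has 4 transcript rows with distinct values, whose log2 fold changes ran from 0.63 to 0.65.

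The other proteoglycan-cutting ADAMTS genes had overlapping groups. ADAMTS9, which like ADAMTS20 cuts versican, was at 6411, 7238 and 5686 in hrLuc and 7931, 7678, 6103 and 7132 in S100a1 (log2 fold change 0.16 ± 0.11). ADAMTS1, known as a gene induced in inflammation and under shear stress, was at 2264, 2299 and 2327 in hrLuc and 2948, 2996, 1674 and 1561 in S100a1. The hrLuc values of ADAMTS1 lay close together, whereas in S100a1 replicates 1 and 2 lay above them and replicates 3 and 4 below. Its log2 fold change was -0.07, with a 95% confidence interval from -0.60 to 0.46, and turned to 0.02 in edgeR and in DESeq2.

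ADAMTS5 lies 67061 bases from ADAMTS1 on chromosome 13 and encodes a major aggrecan-cutting protease. It was at 810.2, 1166 and 868 in hrLuc and 1001, 968, 1109 and 1552 in S100a1 (log2 fold change 0.28 ± 0.18). Its highest library, S100a1 replicate 4, was the lowest of the 7 for ADAMTS1, and without it the log2 fold change of ADAMTS5 was 0.13. ADAMTS4, another aggrecan-cutting protease, was at 58.3, 63.1 and 42.0 in hrLuc and 20.7, 51.1, 45.3 and 51.5 in S100a1 (log2 fold change -0.43 ± 0.34). The groups overlapped, and S100a1 replicate 1 alone lay below the hrLuc range, so that the log2 fold change was -0.12 without it. ADAMTS8 and ADAMTS15, neighbours on chromosome 9 with 14449 bases between them, were at -0.26 and -0.21.

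The enzymes that trim procollagens did not share a direction. ADAMTS2 and ADAMTS3 remove the N-terminal propeptide of fibrillar procollagens, and ADAMTS3 is also known for activating the lymphatic growth factor VEGFC. ADAMTS3 (chromosome 8, 68675067 to 68948537) was at 1362, 687 and 1316 in hrLuc and 679, 251, 456 and 565 in S100a1. The groups did not overlap, but hrLuc replicate 2 lay only just above S100a1 replicate 1. The means were 1122 ± 377 (SD, n = 3) and 488 ± 182 (SD, n = 4), a log2 fold change of -1.23 ± 0.35 (SE), or 0.427-fold, with an adjusted p of 0.524 in limma. It was the lowest log2 fold change of the family, and after ADAMTS19 this gene had the widest spread within groups of the 39.

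ADAMTS2 (chromosome 2, 79182901 to 79406879) was at 2052, 1714 and 1644 in hrLuc and 1062, 1431, 1642 and 1375 in S100a1. The groups were separated by the narrow step between hrLuc replicate 3 and S100a1 replicate 3. The log2 fold change was -0.40 ± 0.14 (SE), or 0.758-fold (adjusted p = 0.557, limma), and -0.28 without S100a1 replicate 1, the lowest library. ADAMTS14, the third procollagen N-proteinase, was at 605 to 629 in hrLuc and 476 to 835 in S100a1, with a log2 fold change of 0.05 and a confidence interval from -0.35 to 0.45.

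ADAMTS6 and ADAMTS10 are a pair of related genes tied to fibrillin microfibrils, and the values of ADAMTS6 were higher in S100a1. ADAMTS6 (chromosome 16, 43702519 to 44010820) was at 2915, 2349 and 2403 in hrLuc and 3787, 3831, 2949.6 and 3067 in S100a1. The highest hrLuc library lay just below the lowest S100a1 library. The means were 2556 ± 313 (SD, n = 3) and 3409 ± 465 (SD, n = 4), a log2 fold change of 0.41 ± 0.12 (SE) (adjusted p = 0.530, limma). ADAMTS6 partly overlaps CENPK, a kinetochore gene, whose count was 12.1% to 16.1% of its own and whose log2 fold change was 0.17. ADAMTS10 had the tightest values of all 39 genes, from 543 to 594 in hrLuc and 496 to 551 in S100a1 (log2 fold change -0.11 ± 0.08).

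The remaining ADAMTS genes had overlapping groups. ADAMTS7 and ADAMTS12, which cut cartilage oligomeric matrix protein, were at log2 fold changes of -0.03 and 0.08. ADAMTS13, the protease of von Willebrand factor, was at 16.0, 28.9 and 28.4 in hrLuc and 14.2, 26.7, 13.2 and 14.8 in S100a1. ADAMTS16, ADAMTS17 and ADAMTS18 were at -0.36, -0.21 and 0.60. ADAMTS19 varied most, at 404, 149.7 and 872 in hrLuc and 249.6 to 381 in S100a1, so that both the lowest and the highest library of this gene were hrLuc.

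Of the ADAMTS-like genes, ADAMTSL1 had separated groups. ADAMTSL1, also called punctin, lies on chromosome 1 from 203936654 to 204944236. It was at 5645, 5226 and 5416 in hrLuc and 6784, 5774, 5792 and 6789 in S100a1. S100a1 replicates 1 and 4 stood well above the hrLuc range and replicates 2 and 3 just above it. The log2 fold change was 0.21 ± 0.08 (SE), or 1.15-fold (adjusted p = 0.574, limma). In 1 of its 3 transcript rows the groups overlapped, with 5258 in hrLuc replicate 1 and 5182 in S100a1 replicate 2. ADAMTSL4, a microfibril-associated protein, was at 1755, 1577 and 1712 in hrLuc and 1058, 1473, 1399 and 1743 in S100a1 (log2 fold change -0.27 ± 0.15). ADAMTSL2, ADAMTSL3 and ADAMTSL5 were at -0.31, 0.17 and 0.02, and the single lowest library of ADAMTSL2 was S100a1 replicate 4 (183, against 398 to 547 in the other 6).

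**Figure D2:**
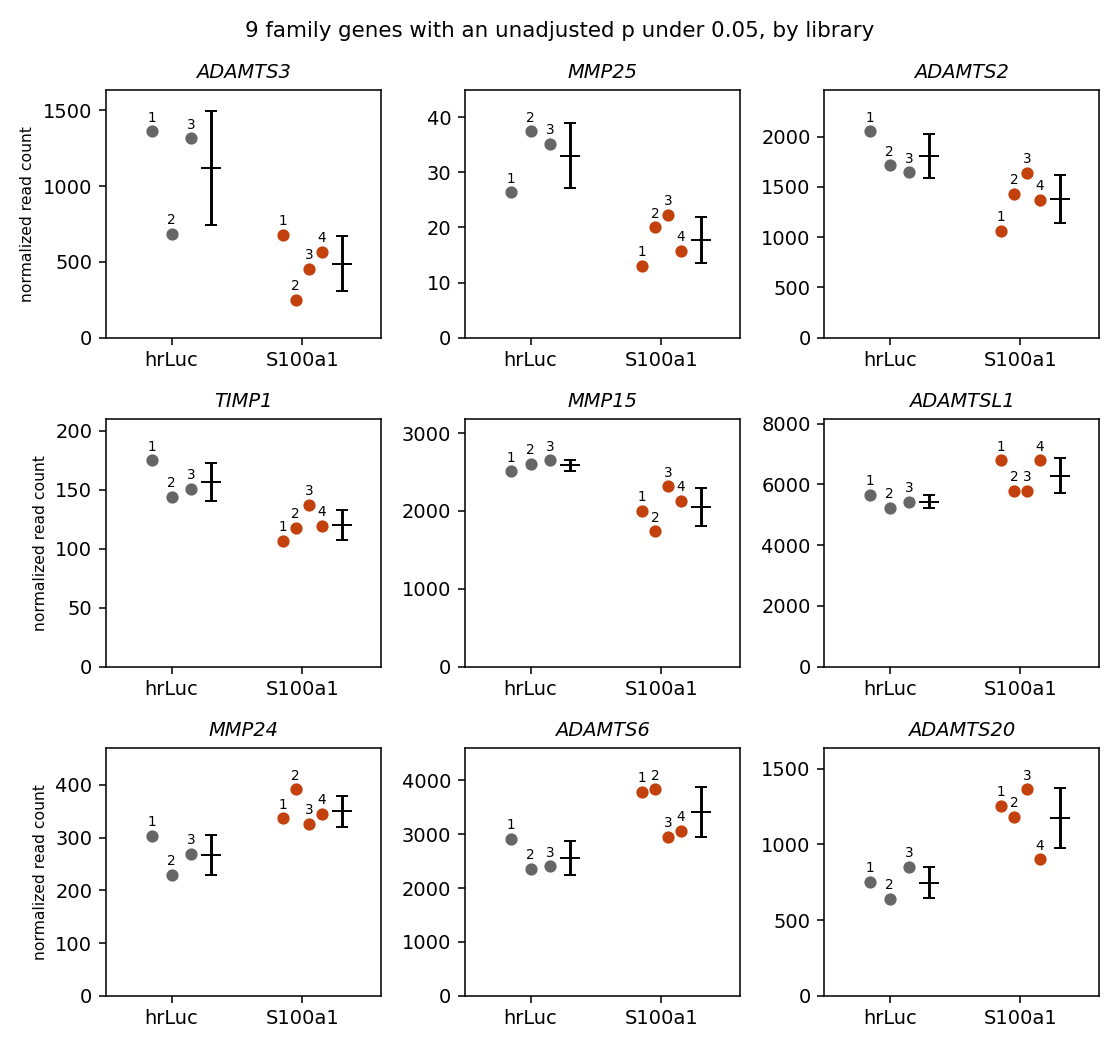
Normalized read counts of the 9 genes with an unadjusted p under 0.05, with 1 point per library labelled by its replicate number and the group mean ± SD beside the points. In each panel the 3 hrLuc and the 4 S100a1 values do not overlap, with the narrowest step in ADAMTS2 (1644 in hrLuc replicate 3 against 1642 in S100a1 replicate 3).

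Among the MMPs, 3 membrane-bound enzymes had separated groups, with 1 higher and 2 lower in S100a1. MMP15, a transmembrane protease that can activate pro-MMP2, lies on chromosome 6 from 19890867 to 19912941. It was at 2509, 2602 and 2649 in hrLuc and 2000.5, 1739.7, 2315 and 2131 in S100a1. The means were 2587 ± 71.5 (SD, n = 3) and 2047 ± 242 (SD, n = 4), a log2 fold change of -0.35 ± 0.10 (SE), or 0.787-fold (adjusted p = 0.514, limma). The hrLuc values lay close together, and all S100a1 values lay below them.

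MMP24, a transmembrane protease best known from neurons, lies on chromosome 17 from 38587230 to 38636628. It was at 303, 229 and 269 in hrLuc and 336, 391, 326 and 345 in S100a1, a log2 fold change of 0.39 ± 0.12 (SE), or 1.31-fold (adjusted p = 0.535, limma). All 4 S100a1 libraries lay above hrLuc replicate 1, the highest of its group. MMP25, a protease held by a lipid anchor and known from neutrophils, lies on chromosome 3 from 39129452 to 39143621. It was at 26.3, 37.4 and 35.2 in hrLuc and 13.1, 20.0, 22.2 and 15.7 in S100a1, a log2 fold change of -0.89 ± 0.29 (SE), or 0.541-fold (adjusted p = 0.541, limma). These are the lowest counts among the 9 genes, and all S100a1 values lay below all hrLuc values.

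Of 7 neutrophil markers, 4 were at or near 0. S100A8, S100A9, S100A12 and MPO were each at 3.41 or less in every library, and the summed level of the whole list was 110.1 to 134 in hrLuc and 109 to 127 in S100a1. CSF3R, ELANE and CXCR2 made up nearly all of that sum. ELANE overlaps another annotated gene, MED16, so its count can hold reads of both.

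The other membrane-type MMPs had overlapping groups. MMP14, the principal activator of pro-MMP2 and a collagenase of its own, was at 2005, 1739.5 and 1708 in hrLuc and 1095, 2199.9, 1710.0 and 2349.6 in S100a1. The S100a1 values lay on both sides of the hrLuc range, and the log2 fold change was -0.04, with a confidence interval from -0.57 to 0.49. Its sign depended on the setting, with 0.04 in edgeR, 0.03 in DESeq2 and 0.0076 with median centring. MMP16 was at 0.01 and MMP17 at -0.36, and neither was separated between groups.

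MMP2, the gelatinase made by fibroblasts, was at 3486, 3575 and 4069 in hrLuc and 2451, 3325, 3845 and 3513 in S100a1. Only S100a1 replicate 1 lay well below the hrLuc range. The log2 fold change was -0.19 ± 0.14, and -0.06 without that library. MMP11, also called stromelysin-3, varied widely in both groups, from 1558 to 2819 in hrLuc and from 1221 to 2929.8 in S100a1. MMP19 was at 188, 189 and 182 in hrLuc and 157, 170.1, 166 and 184 in S100a1, among the tightest values of the family (log2 fold change -0.14 ± 0.11). MMP23 and MMP28 were at -0.19 and 0.10.

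The inflammatory MMPs were barely present. MMP9, the gelatinase of neutrophils and macrophages, was at 6.59, 5.35 and 11.4 in hrLuc and 5.46, 6.67, 8.24 and 2.62 in S100a1. The other 8 genes under the count limit, MMP1, MMP3, MMP7, MMP8, MMP12, MMP13, MMP20 and MMP27, lie together on chromosome 9 between 33214590 and 33616700. They include the interstitial collagenases MMP1, MMP8 and MMP13, the stromelysin MMP3 and the macrophage elastase MMP12. Their highest value was 10.7 (MMP13 in S100a1 replicate 3), and MMP1, MMP3, MMP8 and MMP12 stayed at 4.37 or less in every library. Among all family genes, MMP9 came closest to the limit from below and MMP25 and ADAMTS13 from above. No fold change is given for genes under the limit.

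Of the 4 inhibitors, TIMP1 had lower values in S100a1 and the other 3 had overlapping groups. TIMP1, the inhibitor most readily induced in wounds and inflammation, lies on chromosome X from 42103251 to 42106289. It was at 175, 144 and 151 in hrLuc and 107, 118, 138 and 119.6 in S100a1. The highest S100a1 library lay just below the lowest hrLuc library. The means were 157 ± 16.1 (SD, n = 3) and 120.5 ± 12.7 (SD, n = 4), a log2 fold change of -0.38 ± 0.14 (SE), or 0.769-fold (adjusted p = 0.557, limma).

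TIMP4, an inhibitor known for its high level in the heart, was at 209.8, 235 and 268 in hrLuc and 286, 295, 287 and 257 in S100a1 (log2 fold change 0.25 ± 0.12). S100a1 replicate 4 alone lay within the hrLuc range. TIMP2, which inhibits MMP2 and also helps MMP14 to activate it, was at 3759, 3923 and 2494 in hrLuc and 2339, 2679, 2593 and 3625 in S100a1 (log2 fold change -0.26 ± 0.19). Both groups held high and low libraries. Among genes with more than 1 transcript row, TIMP2 was the 1 whose rows differed most, with log2 fold changes from -0.28 to -0.14.

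TIMP3, which binds to the matrix and inhibits ADAMTS4 and ADAMTS5 as well as MMPs, was at 10522, 9394 and 10918 in hrLuc and 10475, 11617, 10413 and 9280.4 in S100a1. The groups overlapped fully, with a log2 fold change of 0.02 and a confidence interval from -0.19 to 0.23. The sign turned with quantile normalization (-0.03). The ratio of the MMP2 count to the TIMP2 count was 0.911 to 1.63 in hrLuc and 0.969 to 1.48 in S100a1, and that of MMP14 to TIMP2 was 0.443 to 0.685 and 0.468 to 0.821. Neither ratio separated the groups. The ratio of TIMP4 to TIMP1, chosen after both values were seen, averaged 1.53 ± 0.299 across the hrLuc libraries and 2.35 ± 0.281 across the S100a1 libraries (SD), with no overlap.

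A property of the table bears on the TIMP values. TIMP1, TIMP3 and TIMP4 each lie inside a synapsin gene (SYN1, SYN3 and SYN2), a neighbourhood that vertebrate genomes share. The SYN3 count was 101% to 102% of the TIMP3 count in every library, and the SYN2 count was 109% to 118% of the TIMP4 count. SYN2 itself had separated groups with S100a1 above and a log2 fold change of 0.31, beside 0.25 for TIMP4, and reads of the 2 genes cannot be told apart here, which also holds for the TIMP4 to TIMP1 ratio. The SYN1 count was 391% to 663% of the TIMP1 count, with a log2 fold change of 0.06. Across the table there were 274 pairs in which a gene with a mean of at least 100 lay inside the span of another. In 264 of them (96.4%) the outer gene held at least as many reads as the inner one in every library. Whether reads of an inner gene were also counted for the outer one was not tested, so a family gene that overlaps another can hold reads of both. Of the 39 genes, 17 overlap another annotated gene, among them ADAMTS2, ADAMTS6, ADAMTSL1 and TIMP1 of the 9. The sources used here do not state whether reads in introns were counted. Ratios and percentages between counts of different genes are therefore not read as ratios of transcript levels.

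**Figure D3:**
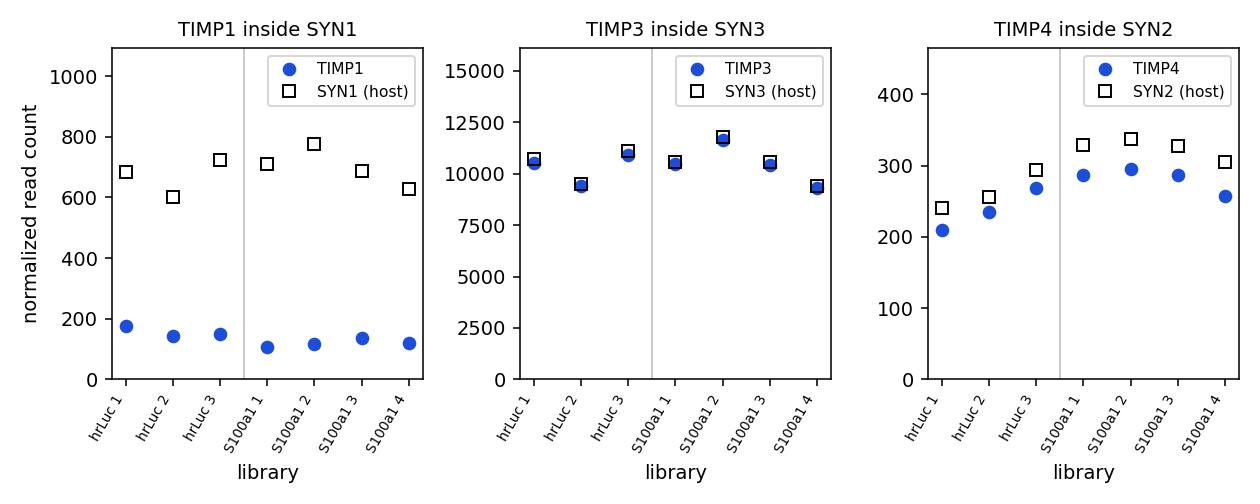
Normalized read counts of TIMP1, TIMP3 and TIMP4 (filled circles) and of the synapsin gene in which each lies (open squares) in the 7 libraries, with hrLuc left of the grey line. The SYN3 values sit on the TIMP3 values (101% to 102%), and the SYN1 values stand at 391% to 663% of the TIMP1 values.

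The 9 genes with separated groups were examined further with the other fits. They were chosen by the values of these same 7 libraries, so small p-values here follow from that choice and are no separate support. The exact two-sided permutation test over 35 arrangements of the labels gave p = 0.0286 for MMP24 and MMP25, the smallest value this design allows. The exact test gave p = 0.0571 for ADAMTS20, ADAMTS3, ADAMTS2, ADAMTS6, MMP15 and TIMP1 and p = 0.0857 for ADAMTSL1. When run on recovered whole reads, edgeR called 0 family genes (0.0128% of all genes) and had 10 at an unadjusted p under 0.05, the same 9 and TIMP4. limma-voom called 0 (0% of all genes) and also had 10. DESeq2 called 1, ADAMTS20 (adjusted p = 0.00963, log2 fold change 0.67), where it called 0.568% of all genes. By the adjusted p of the authors' deposited table, 2 of the 39 passed 0.05 (5.13%, against 0.728% of all genes). These were ADAMTS20, with a log2 fold change of 0.65 and an adjusted p of 0.0157 in the authors' deposited table, and ADAMTS3, at -1.20 and 0.0303 in the authors' deposited table.

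The fold changes of the 9 genes kept their sign with each library left out. This was fixed in advance, because groups that are fully apart stay apart when a library is removed. The ranges are thus a description of size. ADAMTS20 ran from 0.54 to 0.77, ADAMTS6 from 0.35 to 0.51, MMP24 from 0.29 to 0.49 and ADAMTSL1 from 0.17 to 0.25. ADAMTS3 ran from -1.55 to -0.94, MMP25 from -1.04 to -0.76, ADAMTS2 from -0.49 to -0.28, TIMP1 from -0.45 to -0.30 and MMP15 from -0.41 to -0.27. In limma ADAMTS20, ADAMTS3, ADAMTS6, MMP15 and MMP24 stayed at an unadjusted p under 0.05 with each library left out. ADAMTSL1 and TIMP1 did not without S100a1 replicate 1, ADAMTS2 and TIMP1 without hrLuc replicate 1, MMP25 and ADAMTSL1 without hrLuc replicate 2, and ADAMTSL1 without hrLuc replicate 3 or S100a1 replicate 4.

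**Figure D4:**
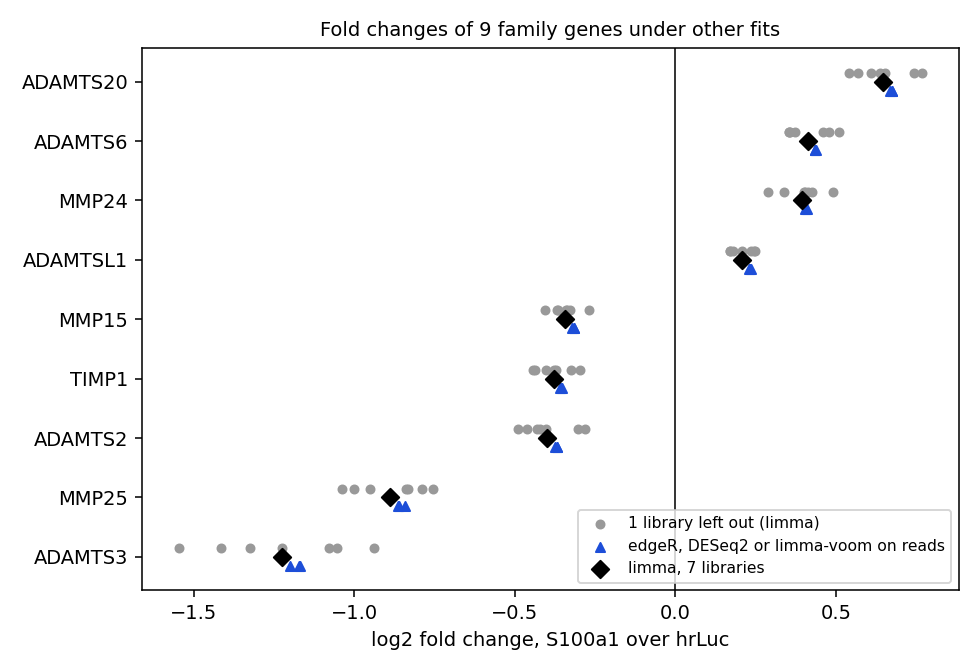
Log2 fold change of S100a1 over hrLuc for the 9 genes in limma with 7 libraries (diamonds), with 1 library left out (grey circles), and in edgeR, DESeq2 and limma-voom on recovered reads (triangles). All points of a gene lie on 1 side of 0, which the choice of genes with separated groups fixed for diamonds and grey circles. ADAMTS3 has the widest range, from -1.55 to -0.94.

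Libraries differed in how often they were the lowest or the highest of the 7, counted over the family genes only. The highest value lay most often in hrLuc replicate 2, in 10 of the 39 genes. S100a1 replicate 1 was the lowest of the 7 libraries in 11 of the 39 genes, among them MMP2, MMP11, MMP14, ADAMTS2, ADAMTS4, ADAMTSL4, MMP25, TIMP1 and TIMP2. It was the highest in 5, and its median deviation from the gene means was 0.02 on the log2 scale. The lowest such median was -0.08, in S100a1 replicate 4. The summed level of the 9 fibroblast markers was lowest in S100a1 replicate 1, at 45713 against 57455 to 86105 in the other 6 libraries. Between groups that sum was 66869 to 86105 in hrLuc and 45713 to 69722 in S100a1. COL1A1 (-0.44) and COL1A2 (-0.37) held most of it in every library, so the sum largely followed these collagen transcripts. DCN, PDGFRA and MFAP5 were at -0.07, -0.10 and -0.09. Of the fibroblast markers, 9 of 9 were negative, with a median log2 fold change of -0.14. Among them 3 were at an unadjusted p under 0.05, where 4.57% of all genes tested were lower at that level. Markers of activated fibroblasts summed to 10042 to 10614 in hrLuc and 8130 to 9313 in S100a1, with 6 of 7 measured markers negative. LRRC15 and COMP of that list were at 5.35 or less in every library. T and natural killer cell markers summed to 429 to 698 in hrLuc and 346 to 427 in S100a1, with 6 of 7 negative. Mast cell markers summed to 1625 to 2515 and 889 to 1389, with 2 of 4 negative and a median log2 fold change of 0.49. KIT (-1.27) and MS4A2 (-0.10) held most of that sum, whereas FCER1A (1.57) and CPA3 (1.07) were higher in S100a1. The lower mast cell sum thus followed KIT, and the list had no shared direction. FCER1A reached the count limit only in S100a1 libraries, so it had to differ to be measured. The sums of these 2 immune lists, like that of activated fibroblasts, did not overlap between groups. Endothelial markers (26898 to 31592 and 26405 to 29342) and macrophage markers (6425 to 9451 and 5748 to 9037) overlapped between groups. The part of these cell types in the values of ADAMTS2, TIMP1, MMP15 or the other genes was not tested.

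**Figure D5:**
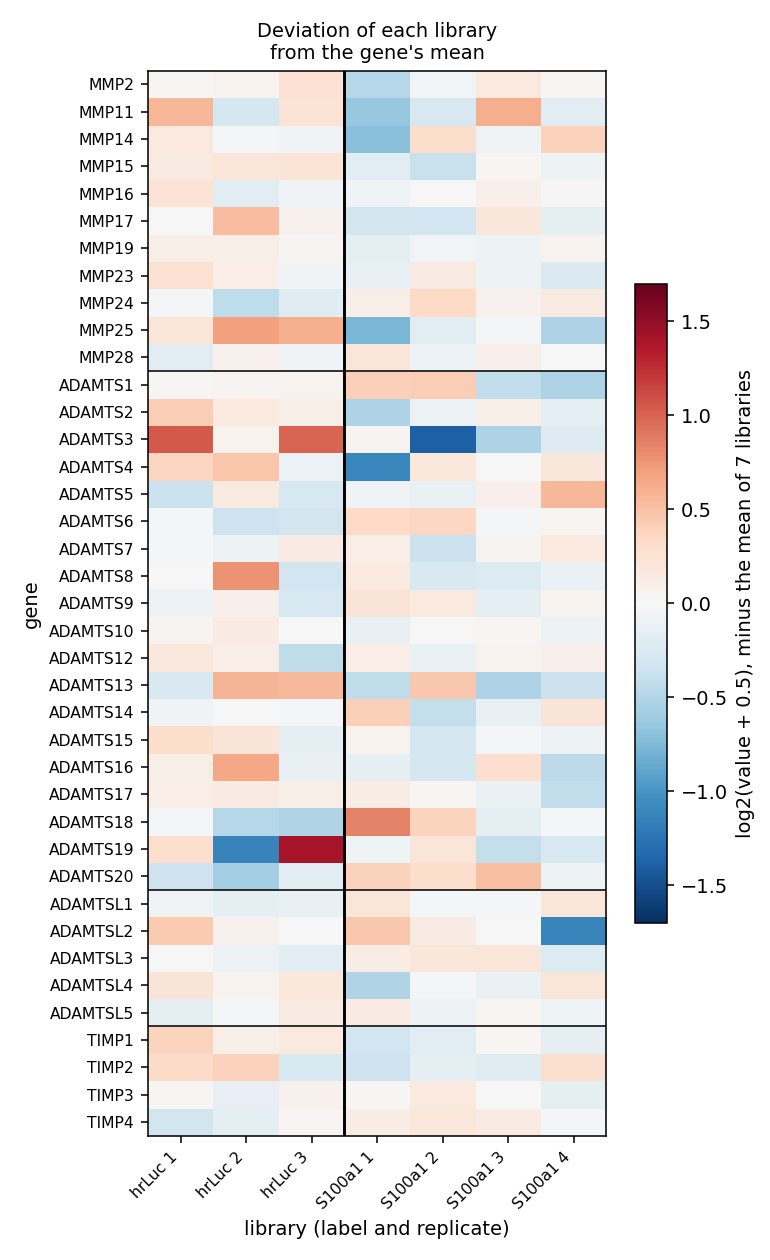
Deviation of each library from the gene's mean on the log2(value + 0.5) scale for the 39 genes, with hrLuc left of the vertical line. Red is above and blue below the mean. The column of S100a1 replicate 1 holds the lowest value of 11 genes, and ADAMTS3 and ADAMTS19 show the widest ranges.

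Genes that act with the family were read from 4 lists, of which 110 genes were measured. None passed in limma, 4 were higher and 15 lower at an unadjusted p under 0.05 (3.69% and 4.57% of all genes tested were), and the median log2 fold change was -0.12. Groups were separated with S100a1 above in 6 and below in 9 of the 110, where 3.96% and 5.31% of all genes were. Of 28 measured activators and inhibitors of matrix proteolysis, 1 was at that level. This was PLG, which encodes plasminogen, at 3.76, 2.14 and 4.54 in hrLuc and 15.3, 16.7, 4.94 and 15.7 in S100a1. PLG reached 10 only in S100a1 libraries and overlaps SLC22A3, so it had to differ to be measured. The plasminogen activators PLAU and PLAT were at -0.27 and -0.04, the proenzyme-cutting protease FURIN at -0.10 and the membrane-anchored MMP inhibitor RECK at -0.16, all with overlapping groups.

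Of 34 measured substrates, 28 were negative (56.5% of all genes tested were) and the median log2 fold change was -0.18, against -0.02 for all genes. At an unadjusted p under 0.05, 9 were lower and 1 was higher, where 4.57% and 3.69% of all genes were. Of the 9 lower ones, 4 had separated groups (ELN, COL8A1, THBS2 and LUM) and 5 overlapped. None passed in limma after adjustment. The lower ones were ELN, elastin (-0.60), TNC, tenascin C (-0.69), COL8A1, a short-chain collagen (-0.51), FMOD, fibromodulin (-0.45), COL1A1 (-0.44), THBS2, thrombospondin 2 (-0.43), LUM, lumican (-0.31), FBN1, fibrillin 1 (-0.31) and COL5A1 (-0.25). COL1A1, LUM and COL8A1 are also among the fibroblast markers given above, whose part in these values was not tested. LTBP1, which binds latent TGF-beta, was the higher one (0.27). VCAN, versican, the shared substrate of ADAMTS1, ADAMTS9 and ADAMTS20, was at -0.06 with a range of 3543 to 5929 in hrLuc and 3848 to 6262 in S100a1.

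Among 22 other measured metalloproteases, 1 was at an unadjusted p under 0.05, where 8.26% of all genes tested were. This was TLL2, a relative of the procollagen C-proteinase BMP1. It was at 74.3, 95.2 and 85.2 in hrLuc and 60.1, 41.1, 37.1 and 68.1 in S100a1 (log2 fold change -0.75 ± 0.25). BMP1 itself was at -0.16, and the cell-surface sheddases ADAM10 and ADAM17 were at -0.02 and -0.05.

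Among factors known to induce MMP or TIMP genes, 26 were measured. Of these, 5 were lower and 2 higher at an unadjusted p under 0.05, where 4.57% and 3.69% of all genes were. JUNB (-0.67 ± 0.12), FOSB (0.331-fold) and FOS (-1.28 ± 0.36), subunits of the AP-1 transcription factor, were among the lower ones, with RUNX1 (-0.27) and TGFB3 (-0.45). The other measured AP-1 subunits of the list, FOSL2 (-0.10), JUN (0.08) and JUND (0.11), had overlapping groups. MYC (0.55) and IL1R1, the interleukin-1 receptor (0.39), were the higher ones. FOS had overlapping groups, with 125 to 347 in hrLuc and 56.8 in the lowest S100a1 library, while in S100a1 replicate 4 it lay above hrLuc replicate 3.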

How the data were processed

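The deposited table holds 63562 transcript rows for 7 libraries. As deposited, each library has a signal column, in which the authors had divided read counts by a size factor (read from the values, which no header explains). In every library 100% of values were whole multiples of 1 read within 0.01 read, so whole reads were recovered. The deposited log2, ratio (fold) and adjusted p-value columns are the authors' comparison. Per the submitters' processing notes the build was Sscrofa11.1 and R 4.1.2, FastQC 0.11.8 and DESeq2 1.33.1 were used, with no role given; for aligner, counting mode and strand: not given in the sources used here. Per the labels, ribosomal RNA was depleted.

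All 63562 rows matched a RefSeq gene (Sscrofa11.1). The row with the highest mean was kept for each of 20653 genes. Genes with at least 10 in 3 libraries (15661) were fitted with limma 3.58.1 (R 4.3.3) on log2(value + 0.5) with a trend and no covariates, 5 residual and 3.84 prior degrees of freedom, adjusted by Benjamini-Hochberg with a threshold of 0.05. edgeR 4.0.16, DESeq2 1.42.0 and limma-voom were run on the recovered reads, rounded to whole counts. The script was tested on simulated counts. The planned branch for normalized values was used.

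The family genes, the gene lists and the marker lists were chosen with earlier results of these data known. Values in every library are given for genes at an unadjusted p under 0.05 or with separated groups and for 13 measured reference genes and MMP9. Alternatives covered scaling, filters, pseudocounts, the prior, each library left out, other transcript rows, the replicate block and genes without overlap. The limma p-values set the difference of group means against the spread within groups of these 7 pigs, moderated by a prior from all genes. Some genes of the pathway and marker lists, and 1 marker list, are not reported here.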

Additional observations from a re-analysis of the deposited data

Results flagged for a closer look

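In ADAMTS13, the protease of von Willebrand factor, 1 of the 4 S100a1 libraries stood far from the other 3. S100a1 replicate 2 was at 26.7 normalized counts, where the others were at 13.2 to 14.8, and its gap to the nearest was 0.877 of the group's range, above Dixon's 95% critical value for 4 samples. All 39 measured genes were examined in this way in the group of 4, and by chance about 1 in 20 groups would be marked. The hrLuc libraries of this gene were at a mean of 24.4 ± 7.30 (SD, n = 3), and CACFD1, which lies inside it, had 822% to 1538% of its count.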

How the results depend on the processing

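With 7 libraries limma called 2 of all genes and 0 family genes. The number of all genes called was 89 in DESeq2, 0 in limma-voom, 0 with the replicate block, 1 with median centring and 1 among genes without overlap, and 0 to 3 with a library left out. Family genes called were 1 in DESeq2 (ADAMTS20), and 0 in all other settings run, a threshold of 0.10 included. Family genes at an unadjusted p under 0.05 numbered 5 of 22 without overlap, where fewer genes were tested (8.18% of all genes), and 7 to 12 with a library left out (9 with all), where the share of all genes ran from 4.95% without hrLuc replicate 1 to 10.5% without hrLuc replicate 2. Family genes with separated groups numbered 5 without overlap, 8 with the lowest transcript row (ADAMTSL1 lost), and 10 to 16 with a library left out, where fewer values have to be apart. Same-numbered libraries did not deviate together (correlations -0.02, -0.07 and 0.08), so the numbers were not read as pairs; with the replicate block, to which S100a1 replicate 4 adds no information, 10 family genes were at an unadjusted p under 0.05 (6.46% of all genes). Of these, 6 were among the 9, and ADAMTS2, ADAMTSL1 and TIMP1 were not.

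Of 410 refits of the 20 named genes, 13 turned the sign, all in 3 genes whose fold change lay within its standard error of 0. ADAMTS1 was at 0.0186 in DESeq2, 0.0190 in edgeR, 0.10 with the replicate block, and from -0.22 to 0.10 with a library left out. MMP14 was at 0.0349 in DESeq2, 0.0369 in edgeR, 0.00762 with median centring, and from -0.18 to 0.19 with a library left out. TIMP3 was at -0.0253 with quantile normalization and from -0.0415 to 0.0773 with a library left out. The scalings moved the median of all genes by at most 0.05 on the log2 scale. Low counts limit what MMP9 and the chromosome 9 cluster can show.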

Other observations

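A locus without a gene symbol, LOC102163879, is described in the table as matrix metalloproteinase-26 and lies on chromosome 9 from 5186187 to 5188450. It was not taken as a family gene, because its symbol does not name it. Normalized counts averaged 9.88 ± 2.49 over the hrLuc libraries and 13.2 ± 2.86 over the S100a1 libraries (SD), with overlapping groups.

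PAPPA, a metalloprotease that cuts insulin-like growth factor binding proteins, had separated groups with S100a1 above (log2 fold change 0.31), as had OSMR, the oncostatin M receptor (0.18). PLAUR, the urokinase receptor, had separated groups with S100a1 below (-0.32). These 3 were the pathway genes with separated groups that were not at an unadjusted p under 0.05 in limma, and they were named after their values were seen.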
